A study of Mus musculus with 12 samples.

Results

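The genes described here carry the signal of leukaemia inhibitory factor (LIF) or respond to it. They were chosen by name, with earlier results of these data known. They are 10 of the 13650 genes tested: the receptor chains Lifr, Il6st and Osmr, the transcription factor Stat3, its feedback inhibitor Socs3, the target genes Bcl3 and Timp1, and the acute-phase genes Lcn2, Saa3 and Cp. Only probe sets annotated to a single member were used, and each gene was read from the one with the highest mean signal over the 12 arrays. All 10 genes had such a probe set and reached a signal of 20 on at least 1 array, the filter on dim values. Lcn2 passed it only through the LIF-grown arrays, where it is high.

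The study read transcript levels of 12 mouse cell populations with Affymetrix arrays. Neurospheres made from fibroblasts and grown with LIF were on 3 arrays: adult fibroblast-derived replicate 2 and embryonic fibroblast-derived replicate 3, both with LIF, and embryonic fibroblast-derived replicate 4, with LIF and cAMP. They were set against 1 array of adult fibroblast-derived neurospheres grown with EGF and cAMP (replicate 1), the iPS line 38C2 and the ES line EB3 (1 array each), primary neurospheres of iPS and of ES origin (1 array each), secondary neurospheres of iPS and of ES origin (1 array each), 1 array of neurospheres from the embryonic day 14 ganglionic eminence (GE) and 1 array of adult skin fibroblasts. All neurospheres grew in a medium called MHM. The strain is given as C57BL/6, apart from the ES and iPS cells. The labels name no transgene and no way of conversion, and do not say whether LIF was in the medium of the iPS and ES cells. Embryonic fibroblasts were not measured.

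LIF binds the receptor chain encoded by Lifr, which pairs with the shared signalling chain encoded by Il6st. Janus kinases on the paired chains phosphorylate STAT3, which enters the nucleus, and SOCS3 made in response binds the receptor and damps the signal. Mouse ES cells use this route for self-renewal, neural progenitors for the switch to astrocytes, and liver and epithelia for the acute-phase response.

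The sequences before the starts of Socs3, Lcn2, Saa3 and Cp are shown because the 3 acute-phase genes were high on the LIF-grown arrays and low on the EGF and cAMP array, while Socs3, a classical STAT3 target, was high on both. Each is the 250 bases before a RefSeq start, 5′ to 3′ on the gene's strand, in build GRCm38.p6. Capitals mark letters searched on both strands: TTCNNNGAA for STAT factors, in Socs3, and TTGCNNAA or its reverse complement for C/EBP factors, in the other genes. The windows are chr11:117969367-117969616 on the minus strand for Socs3, chr2:32387740-32387989 on the minus strand for Lcn2, chr7:46715677-46715926 on the minus strand for Saa3, and chr3:19956999-19957248 on the plus strand for Cp, the second of 2 starts listed.
Socs3: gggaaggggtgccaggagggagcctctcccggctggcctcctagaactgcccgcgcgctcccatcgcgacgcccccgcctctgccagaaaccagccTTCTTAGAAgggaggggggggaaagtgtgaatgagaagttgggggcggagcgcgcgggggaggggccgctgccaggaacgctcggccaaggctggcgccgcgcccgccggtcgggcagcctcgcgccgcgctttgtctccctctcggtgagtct
Lcn2: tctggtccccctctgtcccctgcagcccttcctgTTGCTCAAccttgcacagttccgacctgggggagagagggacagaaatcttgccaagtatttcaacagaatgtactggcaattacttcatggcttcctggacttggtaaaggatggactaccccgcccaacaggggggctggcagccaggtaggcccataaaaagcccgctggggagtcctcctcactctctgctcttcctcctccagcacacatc
Saa3: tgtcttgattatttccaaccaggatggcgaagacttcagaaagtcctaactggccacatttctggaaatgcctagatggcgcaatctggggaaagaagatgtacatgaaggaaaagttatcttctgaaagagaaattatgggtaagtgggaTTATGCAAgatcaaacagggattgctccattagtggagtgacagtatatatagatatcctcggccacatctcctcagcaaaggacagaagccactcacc
Cp: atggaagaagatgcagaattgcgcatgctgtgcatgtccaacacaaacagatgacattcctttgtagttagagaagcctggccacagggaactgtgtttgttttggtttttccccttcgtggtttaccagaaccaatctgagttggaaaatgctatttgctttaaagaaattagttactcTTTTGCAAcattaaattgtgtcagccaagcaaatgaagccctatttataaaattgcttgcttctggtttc

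The STAT letters in Socs3 lay from base -154 to -146 before its start, and 7.02% of the 32851 RefSeq windows of this length held them. The C/EBP letters lay from -216 to -209 in Lcn2, from -99 to -92 in Saa3 and from -70 to -63 in Cp, and 9.56% of all windows held them. A search for an NF-kB pattern found no match in the 12 windows of the 10 members, against 1.21% of all windows. No window shown held more than 1 match. Of the 10 members, 1 held the STAT letters and 3 the C/EBP letters, and these are the genes shown. The first window of Cp and the windows of the other members held no match. The patterns were chosen with the expression values known, and a match is a description of the letters, not of binding.

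Values are MAS5 signals as deposited, with a trimmed mean of 100. A signal of 20 was reached by 40.5% to 49.1% of probe sets per array, and the Actb controls gave a 3′ to 5′ ratio of 1.25 to 1.52. Of the pluripotency markers, 8 of 8 reached 20 on every LIF-grown array and 7 on the EGF and cAMP array, while their summed signal was 59.9 in GE neurospheres. The summed signal of 9 neural stem cell markers was 1620 to 2395 on the LIF-grown arrays, 861 on the EGF and cAMP array and 17538 in GE neurospheres. By these sums, the cells labelled as fibroblast-derived neurospheres had more signal of pluripotency markers and less of neural ones than neurospheres from the brain. Nes alone of the 9 went the other way on some arrays, at 155.7 on adult replicate 2 and 200.6 on the EGF and cAMP array, against 132.8 in GE neurospheres. Whether the arrays within a group stand for separate cultures is not stated, so p-values cover only the spread between them. The LIF-grown arrays also differ in source and in cAMP, which is part of their spread, and the number of arrays limits the precision.

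**Figure D1:**
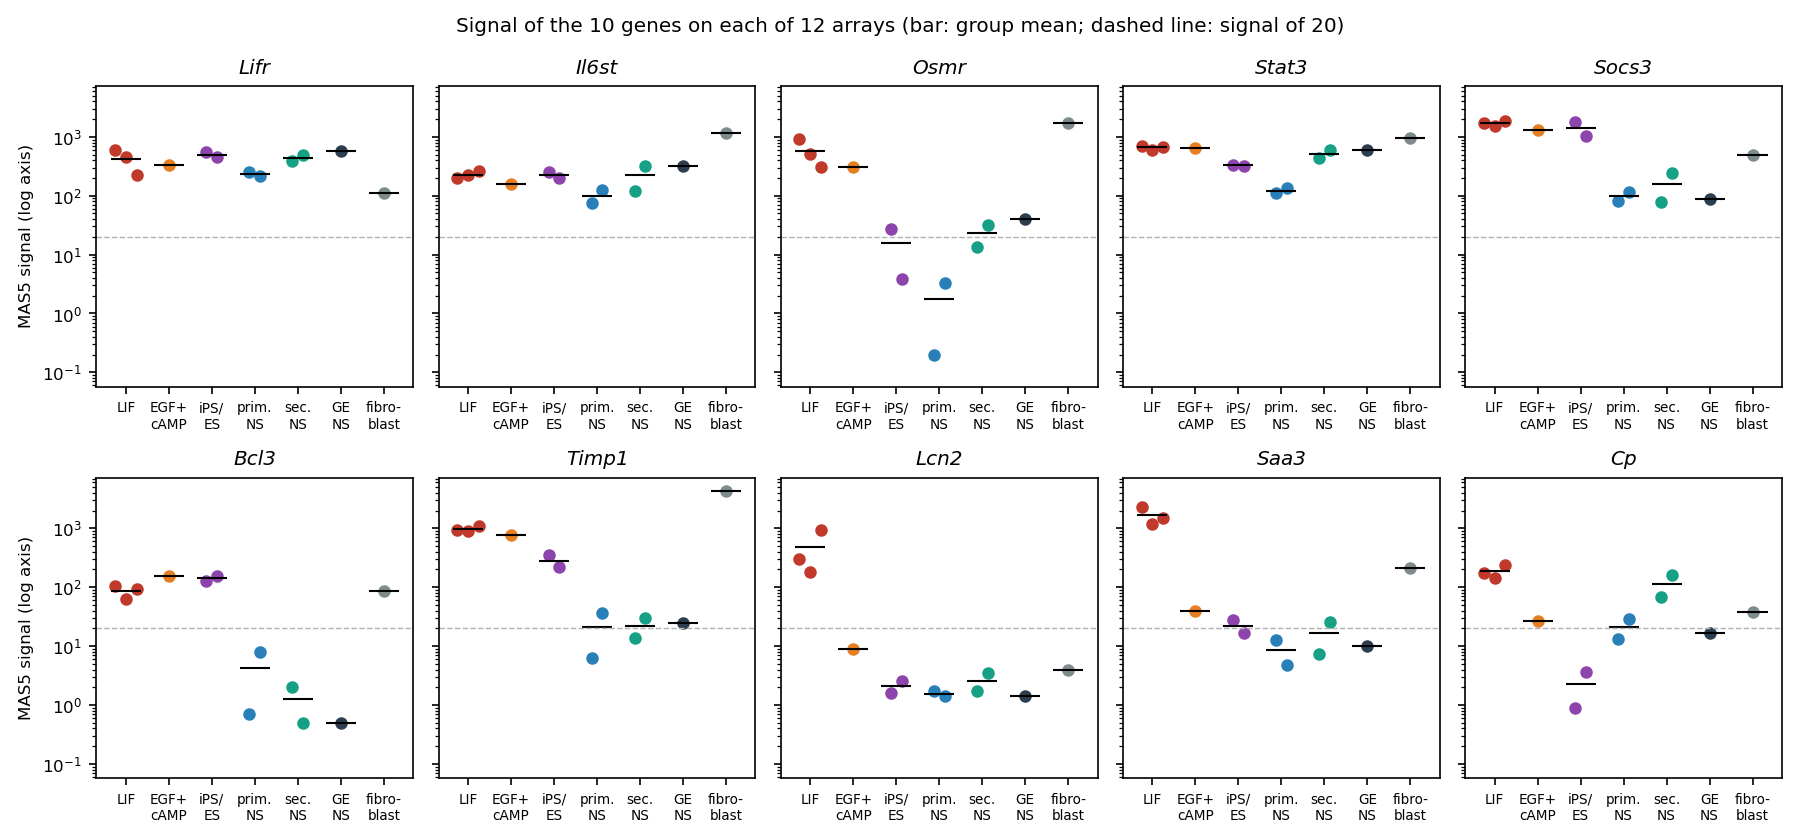
MAS5 signal (log axis) of each of the 10 genes on the 12 arrays, by group. Points are arrays, black bars are group means and the dashed line is a signal of 20. Saa3, Lcn2 and Cp are high on the 3 LIF-grown arrays and low on the EGF and cAMP array, whereas Stat3, Socs3 and Timp1 lie close together on all 4.

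Lifr, the LIF-binding receptor chain, was present in every group. Its signal was 602.6, 450.3 and 224.9 on the LIF-grown arrays (replicates 2, 3 and 4), 337.8 on the EGF and cAMP array, 543.1 and 454.8 in iPS and ES cells, 251.1 and 212.3 in primary neurospheres of iPS and ES origin, 386.2 and 496.3 in secondary ones, 583.6 in GE neurospheres and 109.3 in adult fibroblasts. The fibroblasts were the lowest array, and the LIF-grown arrays overlapped every other group. Lifr was higher in LIF-grown neurospheres than in adult fibroblasts, by a log2 difference of 1.80 ± 0.47 (SE, limma adjusted p = 0.0293), and passed in no other comparison. Its one other probe set that reached 20 gave 0.90 against the fibroblasts. That call was lost with a common median for all arrays (adjusted p = 0.0863), the mean of its probe sets (0.127), only the groups compared (0.0749) and without replicate 3 (0.0792).

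Il6st, the signalling chain shared by the receptors of this cytokine family, had signals of 198.4, 221.6 and 266.1 on the LIF-grown arrays, 156.1 on the EGF and cAMP array, 253.2 and 196.9 in iPS and ES cells, 74.7 and 125 in primary neurospheres, 121.4 and 320.7 in secondary ones, 316 in GE neurospheres and 1167.2 in adult fibroblasts. The fibroblast array stood above all others. The LIF-grown arrays lay above the EGF and cAMP array and the primary neurospheres, below GE neurospheres, and overlapped the pluripotent cells and secondary neurospheres. By the next brightest probe set they lay below the EGF and cAMP array, at 140.2, 152.7 and 146.7 against 191.8. Of the gene's 3 other probe sets that reached 20, 1 had the same sign as the brightest in that comparison. Il6st was lower in LIF-grown neurospheres than in fibroblasts, at 229 ± 34.4 (SD, n = 3) against 1167 (log2 difference -2.34 ± 0.50, adjusted p = 0.015), and its 3 other probe sets that reached 20 had the same sign. Against the primary neurospheres it did not pass (1.19 ± 0.40, adjusted p = 0.0556, and 0.032 with the iPS or ES line as a block). Of 20 alternatives in the processing, 4 gave a call there.

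Osmr, which pairs with Il6st to bind oncostatin M, varied most among the receptor chains. Its signal was 935.4, 507.3 and 302.7 on the LIF-grown arrays and 302.7 on the EGF and cAMP array. It was 27.5 and 3.9 in iPS and ES cells, 0.2 and 3.3 in primary neurospheres, 13.5 and 32.2 in secondary ones, 40.9 in GE neurospheres and 1732.5 in adult fibroblasts. All 4 fibroblast-derived neurosphere arrays thus lay above every array of pluripotent cells and of other neurospheres, and below the fibroblasts. The log2 difference of LIF-grown neurospheres was 4.96 ± 0.64 from the pluripotent cells (adjusted p = 0.00161), 6.33 ± 0.64 from primary neurospheres (0.000489), 4.33 ± 0.64 from secondary ones (0.00181) and 3.53 ± 0.81 from GE neurospheres (0.0144). From the adult fibroblasts it was -1.72 ± 0.81 and from the EGF and cAMP array 0.78 ± 0.81, and neither passed (adjusted p = 0.172 and 0.819).

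Stat3, the factor that these receptors activate by phosphorylation, which arrays do not measure, had signals of 710.4, 595.9 and 678.5 on the LIF-grown arrays and 638.3 on the EGF and cAMP array. It stood at 337.9 and 325.7 in iPS and ES cells, 110.9 and 133.8 in primary neurospheres, 430.3 and 590.8 in secondary ones, 587.5 in GE neurospheres and 939.6 in adult fibroblasts. The array without LIF lay inside the range of those with it. LIF-grown neurospheres had more Stat3 transcript than pluripotent cells (0.98 ± 0.20, adjusted p = 0.00993) and primary neurospheres (2.39 ± 0.20, adjusted p = 0.000294). The call against the pluripotent cells was lost with a common median (adjusted p = 0.0619), the mean of the probe sets (0.169) and the adult LIF array alone (0.116). Against secondary and GE neurospheres it did not pass, with log2 differences of 0.38 and 0.17, nor against the EGF and cAMP array (0.05 ± 0.25, adjusted p = 0.976).

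Socs3, the feedback inhibitor, separated fibroblast-derived neurospheres and pluripotent cells from the other neurospheres. Its signal was 1716.3, 1528.8 and 1822.4 on the LIF-grown arrays and 1306.1 on the EGF and cAMP array, beside 1787.3 and 1021.8 in iPS and ES cells. It was 80.3 and 114.8 in primary neurospheres, 77.1 and 240.6 in secondary ones, 86.9 in GE neurospheres and 490.2 in adult fibroblasts. The array without LIF was the lowest of the fibroblast-derived neurospheres but above the ES cells. Socs3 in LIF-grown neurospheres averaged 1689 ± 149 (SD, n = 3), and its log2 difference was 4.06 ± 0.44 from primary neurospheres (adjusted p = 0.000577), 3.57 ± 0.44 from secondary ones (0.000779) and 4.20 ± 0.55 from GE neurospheres (0.00129). From the adult fibroblasts it was 1.77 ± 0.55 (adjusted p = 0.0541, and 0.047 with the line as a block), with a call under 8 of 20 alternatives. From the EGF and cAMP array it was 0.37 ± 0.55 (adjusted p = 0.887). Its 2 other probe sets gave 0.37 and 0.49 in that last comparison.

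Bcl3, an inhibitor-like partner of NF-kB proteins, was low in the primary, secondary and GE neurospheres, as Socs3 was, but highest on the array without LIF. It stood at 106.2, 63.8 and 92.8 on the LIF-grown arrays, 157.2 on the EGF and cAMP array, 129.2 and 152.6 in iPS and ES cells and 85.5 in adult fibroblasts. In primary neurospheres it was 0.7 and 7.9, in secondary ones 2 and 0.5, and in GE neurospheres 0.5. The 3 LIF-grown arrays lay below the array without LIF and below both pluripotent lines, and none of these differences passed (log2 differences of -0.84 ± 0.51 and -0.68 ± 0.40, adjusted p = 0.674 and 0.237). Bcl3 was higher in LIF-grown neurospheres than in primary (3.40 ± 0.40, adjusted p = 0.000816), secondary (3.87 ± 0.40, 0.000372) and GE neurospheres (4.04 ± 0.51, 0.00105), all of which lay under 20, where the size of a difference is imprecise. Over the 12 arrays the log2 values of Bcl3 and Socs3 had a Pearson r of 0.921, a description of arrays that fall into groups.

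Timp1, an inhibitor of matrix metalloproteinases and a gene induced by this cytokine family, was highest in adult fibroblasts at 4273.8. It stood at 946.2, 903.3 and 1088.7 on the LIF-grown arrays, 780.7 on the EGF and cAMP array, 346.3 and 221.5 in iPS and ES cells, 6.3 and 36.1 in primary neurospheres, 13.7 and 29.5 in secondary ones and 25 in GE neurospheres. The LIF-grown arrays, at 979 ± 97.1 (SD, n = 3), lay above the array without LIF by less than a log2 unit (0.32 ± 0.65, adjusted p = 0.918). They were higher than primary neurospheres by 5.51 ± 0.51 (adjusted p = 0.000347), secondary ones by 5.27 ± 0.51 (0.000292), GE neurospheres by 5.03 ± 0.65 (0.00119) and pluripotent cells by 1.80 ± 0.51 (0.0328). The call against the pluripotent cells was lost without any one of the LIF-grown arrays or either pluripotent array, with adjusted p between 0.0531 and 0.175, and with a pseudocount of 1 (0.0599) or the adult LIF array alone (0.25). Against the fibroblasts the log2 difference was -2.12 ± 0.65 (adjusted p = 0.0501), with a call under 8 of 20 alternatives.

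Saa3, a serum amyloid A protein made outside the liver, was bright on the LIF-grown arrays, at 2344.8, 1198.5 and 1500.5. It stood at 38.8 on the EGF and cAMP array, 27.4 and 16.8 in iPS and ES cells, 12.7 and 4.7 in primary neurospheres, 7.4 and 25.6 in secondary ones, 10 in GE neurospheres and 213.6 in adult fibroblasts. No array of another group overlapped the LIF-grown ones. The log2 difference was 5.21 ± 0.60 from the EGF and cAMP array (adjusted p = 0.0414), 5.93 ± 0.48 from pluripotent cells (0.000278), 6.95 ± 0.48 from primary, 6.38 ± 0.48 from secondary and 6.76 ± 0.60 from GE neurospheres (0.000166, 0.000111 and 0.000364), and 2.89 ± 0.60 from adult fibroblasts (0.0131). Family members Saa1 and Saa2 are similar in sequence, and probe sets may share signal.

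Lcn2, the iron-siderophore binding protein lipocalin 2, stood at 299.1, 181.9 and 937.5 on the LIF-grown arrays. It was 8.9 on the EGF and cAMP array, 1.6 and 2.6 in iPS and ES cells, 1.7 and 1.4 in primary neurospheres, 1.7 and 3.5 in secondary ones, 1.4 in GE neurospheres and 4 in adult fibroblasts. Every array outside the LIF-grown ones was under 20, the adult fibroblasts included. Lcn2 thus passed the filter only through the group where it is high, and its calls are a description. Lcn2 passed in 5 comparisons, with log2 differences of 5.39 ± 0.76 from fibroblasts (adjusted p = 0.00329), 5.73 ± 0.60 from pluripotent cells (0.000672), 5.85 ± 0.60 from primary, 5.64 ± 0.60 from secondary and 5.88 ± 0.76 from GE neurospheres (0.000502, 0.00041 and 0.00119). From the EGF and cAMP array the difference was 4.76 ± 0.76 and did not pass (adjusted p = 0.116), though it was the seventh highest of the 13650 genes.

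Cp, which encodes the copper-binding ferroxidase ceruloplasmin, stood at 176.3, 146.1 and 235.8 on the LIF-grown arrays and 26.6 on the EGF and cAMP array. It was 0.9 and 3.7 in iPS and ES cells, 13.2 and 28.7 in primary neurospheres, 68.4 and 159.4 in secondary ones, 16.5 in GE neurospheres and 38.2 in adult fibroblasts. Unlike Saa3 and Lcn2, it overlapped a neurosphere group: the ES-derived secondary neurospheres lay between replicates 3 and 2 of the LIF-grown arrays. Cp was higher than in pluripotent cells by 4.71 ± 0.44 (adjusted p = 0.000495), than in primary neurospheres by 2.92 ± 0.44 (0.00211), than in GE neurospheres by 3.12 ± 0.56 (0.00523) and than in fibroblasts by 2.12 ± 0.56 (0.0311). The last call was lost without any one of the LIF-grown arrays (adjusted p = 0.0563 to 0.0777), and with quantile normalization (0.0518), a common median (0.0521), a pseudocount of 1 (0.0572) or the adult LIF array alone (0.182). From secondary neurospheres the difference was 0.77 ± 0.44 (adjusted p = 0.217) and from the EGF and cAMP array 2.57 ± 0.56 (adjusted p = 0.27). All 6 other probe sets of Cp that reached 20 were higher on the LIF-grown than on the EGF and cAMP array, by 0.88 to 3.13.

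The LIF-grown arrays were then set against the array without LIF over all genes. Of the 10 members, Saa3 alone passed, beside 0.044% of all genes. Of all genes 5 were called higher (0.0366%) and 1 lower (0.00733%). The other called genes, named here after their values were seen, were Aspa, Igf2bp1, Limch1 and Sox2, which were higher, and Akr1c18, which was lower. The median log2 difference of the 10 members was 0.45, beside 0.01 over all genes, and 9 of 10 were above 0 beside 50.7% of all genes. At an unadjusted p under 0.05, 3 members (Saa3, Lcn2 and Cp) and 1192 genes were counted. The call of Saa3 held under 7 of 20 alternatives, with adjusted p from 0.00878 to 0.292, while its log2 difference stayed between 4.80 and 5.75. It was lost without any one array of the repeated groups other than LIF replicate 2 (0.052 to 0.15), and with the line as a block (0.0573). By the brightest probe set of each gene, all 3 LIF-grown arrays lay above the single array without LIF for 6 members (32.8% of all genes). They lay below it for Bcl3 (32.4% of all genes). As labelled, LIF is present and EGF absent on all 3 arrays, so these cannot be told apart. The source is shared by adult replicate 2 and cAMP by embryonic replicate 4, where Saa3 was 2344.8 and 1500.5, against 38.8 on the EGF and cAMP array. These are single arrays, and the parts of source, cAMP and culture were not tested.

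**Figure D2:**
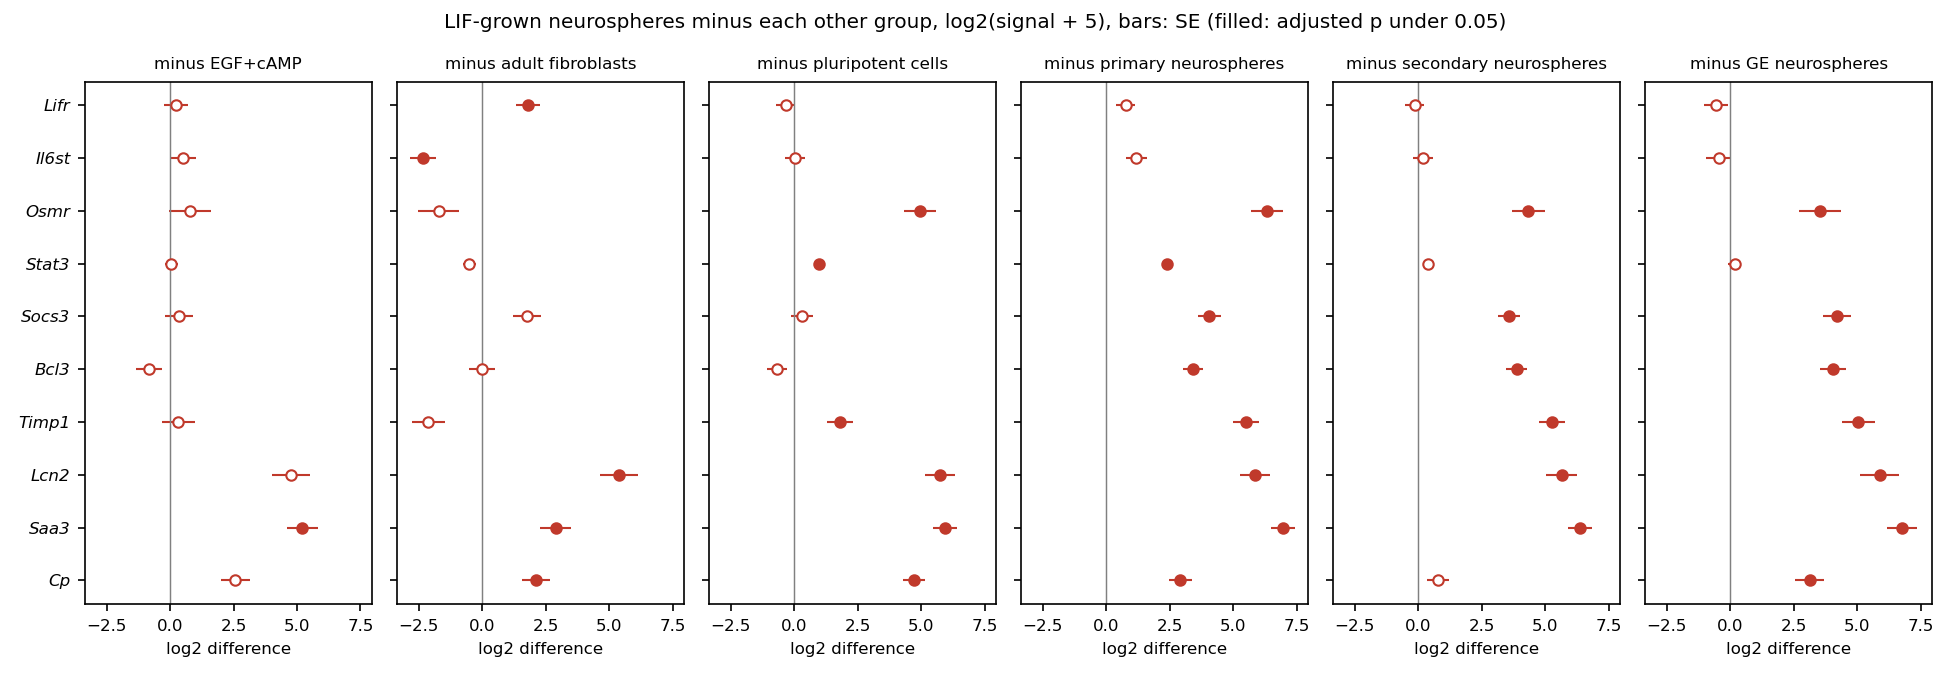
Log2 difference of LIF-grown neurospheres (3 arrays) from each other group for the 10 genes, on the scale of log2(signal + 5). Bars are SE and filled points have an adjusted p under 0.05. Only Saa3 is filled against the EGF and cAMP array, and Saa3 and Lcn2 are filled against all 5 other groups.

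Within the adult-derived pair, from 1 source, replicate 2 (LIF) was compared with replicate 1 (EGF and cAMP), 1 array each and so with no test. Saa3 had the largest log2 difference of all 13650 genes, at 5.75, from signals of 2344.8 and 38.8. Lcn2, at 4.45, ranked 7 and Cp, at 2.52, ranked 126 from the highest. The fourth member at 1 or more was the receptor gene Osmr, at 1.61 and rank 450, from signals of 935.4 and 302.7. Of all genes, 8.01% were higher by 1 or more and 2.86% lower, and no member was lower by that much. Differences under 1 were 0.83 for Lifr, 0.39 for Socs3, 0.34 for Il6st, 0.28 for Timp1, 0.15 for Stat3 and -0.54 for Bcl3. The acute-phase genes and Osmr thus differed more within this pair than Stat3 or its feedback inhibitor did. In the same pair 9 of 10 fibroblast markers and 7 of 8 pluripotency markers were higher by 1 or more, and no macrophage marker was, and the part of such cells was not tested.

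**Figure D3:**
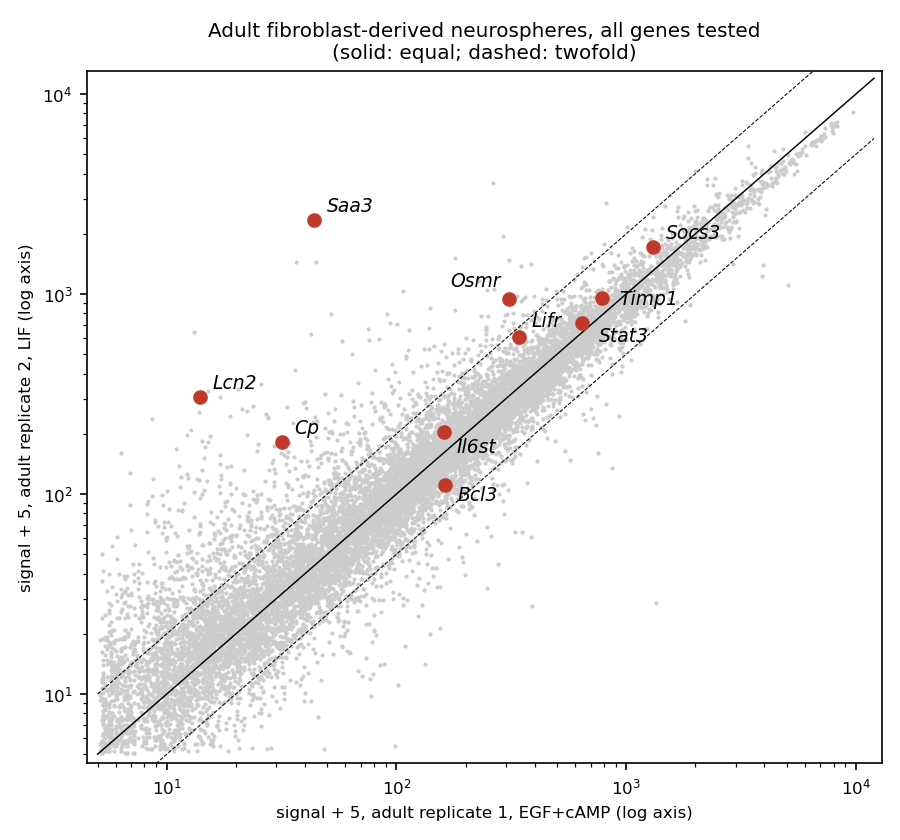
Signal + 5 of all 13650 genes tested in adult fibroblast-derived neurospheres grown with LIF (replicate 2, vertical log axis) and with EGF and cAMP (replicate 1, horizontal log axis), 1 array each. The solid line marks equal signals and the dashed lines a log2 difference of 1; Saa3, Lcn2, Cp and Osmr lie above the upper dashed line and the other 6 members between the lines.

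Within the embryonic-derived pair, replicate 4 (LIF and cAMP) and replicate 3 (LIF) were 1 array each. Lcn2 was the one member higher by 1 or more in replicate 4, at 937.5 against 181.9 (log2 difference 2.33, rank 23 from the highest), where 2.2% of all genes were. No member was lower by 1 or more, where 1.97% of all genes were, and Lifr came closest, at 224.9 against 450.3 (-0.99). Osmr was at 302.7 against 507.3 (-0.74). Saa3, at 1500.5 against 1198.5, differed by 0.32 and Cp by 0.67. Between embryonic replicate 3 and adult replicate 2, both given LIF without cAMP, no member differed by 1 or more in either direction (5.85% of all genes were higher and 4.0% lower), with Saa3 at -0.97 and Osmr at -0.88 the furthest apart.

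Set against neurospheres not made from fibroblasts, most members were higher. Of the 10, 8 were called against primary neurospheres (28.2% of all genes), all but Lifr and Il6st, and all 8 were higher (14.9%) and none lower (13.3%). Against secondary neurospheres 6 were called (30.3%), namely Osmr, Socs3, Bcl3, Timp1, Lcn2 and Saa3, all higher (15.1%) and none lower (15.2%). Against GE neurospheres 7 were called (26.8%), these and Cp, all higher (14.8%) and none lower (12%). The median log2 difference of the 10 was 3.73, 3.72 and 3.79 in the 3 comparisons, beside 0.03, 0.05 and 0.07 over all genes. These comparisons share the LIF-grown arrays and are not independent of each other. The calls of Osmr, Socs3, Bcl3, Timp1, Lcn2 and Saa3 held in all 3 comparisons under each of the 20 alternatives. Lcn2 passed the filter only through the LIF-grown arrays, so its part in these counts is a description.

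Against the iPS and ES cells 6 members were called (27.0% of all genes), of which 6 were higher (18.4%) and none lower (8.57%): Osmr, Stat3, Timp1, Lcn2, Saa3 and Cp. Lifr, Il6st, Socs3 and Bcl3 did not pass, with log2 differences of -0.33, 0.02, 0.32 and -0.68, of which those of Il6st and Socs3 turned sign with a common median (-0.38 and -0.09). Against the adult fibroblasts 5 members were called (20.2%): 4 were higher (12.9%), namely Lifr, Lcn2, Saa3 and Cp, and Il6st was lower (7.26%). In both comparisons Lcn2 was counted though it passed the filter only through the LIF-grown arrays. Bcl3 was level with the fibroblasts as deposited, at 0.00 ± 0.51, and at -0.20 and -0.45 with quantile normalization and a common median. The fibroblasts are the source cell type of the adult-derived array only. With a common median, 39.9% of the calls against the pluripotent cells were higher, beside 68.2% as deposited, and 35.7% beside 64.1% against the fibroblasts.

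Other genes of the pathway were then read as lists. Each list's counts are read against the shares of all genes called, higher and lower: 14.9% and 13.3% against primary, 15.1% and 15.2% against secondary and 14.8% and 12% against GE neurospheres, 18.4% and 8.57% against pluripotent cells and 12.9% and 7.26% against fibroblasts. Of 9 other acute-phase genes tested, 6 were higher in LIF-grown than in primary neurospheres and none lower, 5 higher and 1 lower against secondary neurospheres, 4 and 1 against GE neurospheres, 5 and 0 against pluripotent cells and 2 and 0 against fibroblasts. Saa1, a serum amyloid A gene, stood at 155.8, 1049.8 and 865.1 on the LIF-grown arrays, 1.3 on the EGF and cAMP array and between 0.6 and 5.4 elsewhere. It was higher against all groups (log2 differences of 6.11 to 6.55, adjusted p = 0.000536 to 0.00385) but the EGF and cAMP array (6.39 ± 0.94, adjusted p = 0.0833). Its probe set and that of Saa2 (41.3, 153.9 and 81.4 with LIF, 5.8 without) cite the same transcript, and the genes cannot be told apart here. Hp, the haemoglobin-binding protein haptoglobin, was at 29, 176.7 and 150 with LIF and 1.7 without, and passed against pluripotent cells (3.97 ± 0.66, adjusted p = 0.0043) and the neurospheres of iPS, ES and GE origin but not the fibroblasts (adjusted p = 0.328). The 10 other measured genes of the list stayed under 20 on every array, among them, named after their values were seen, the liver-made orosomucoids (Orm1 and Orm2) and fibrinogen chains (Fga, Fgb and Fgg). In the adult-derived pair 7 of the 9 were higher by 1 or more (8.01% of all genes) and none lower. Saa1, Saa2 and Cfb reached 20 only on LIF-grown arrays and passed the filter through them, so these counts are a description. Serpina3n and A2m, protease inhibitors, stood highest among the LIF-grown arrays on the adult-derived one, at 226.6 and 114.2 on adult replicate 2, against 18.7 and 25 on embryonic replicate 3 and 28 and 29.2 on replicate 4. A2m was the gene called lower than in GE neurospheres, where it stood at 363.8 (-2.89 ± 0.79, limma adjusted p = 0.0279). In secondary neurospheres of iPS and ES origin it was at 85 and 112.2.

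**Figure D4:**
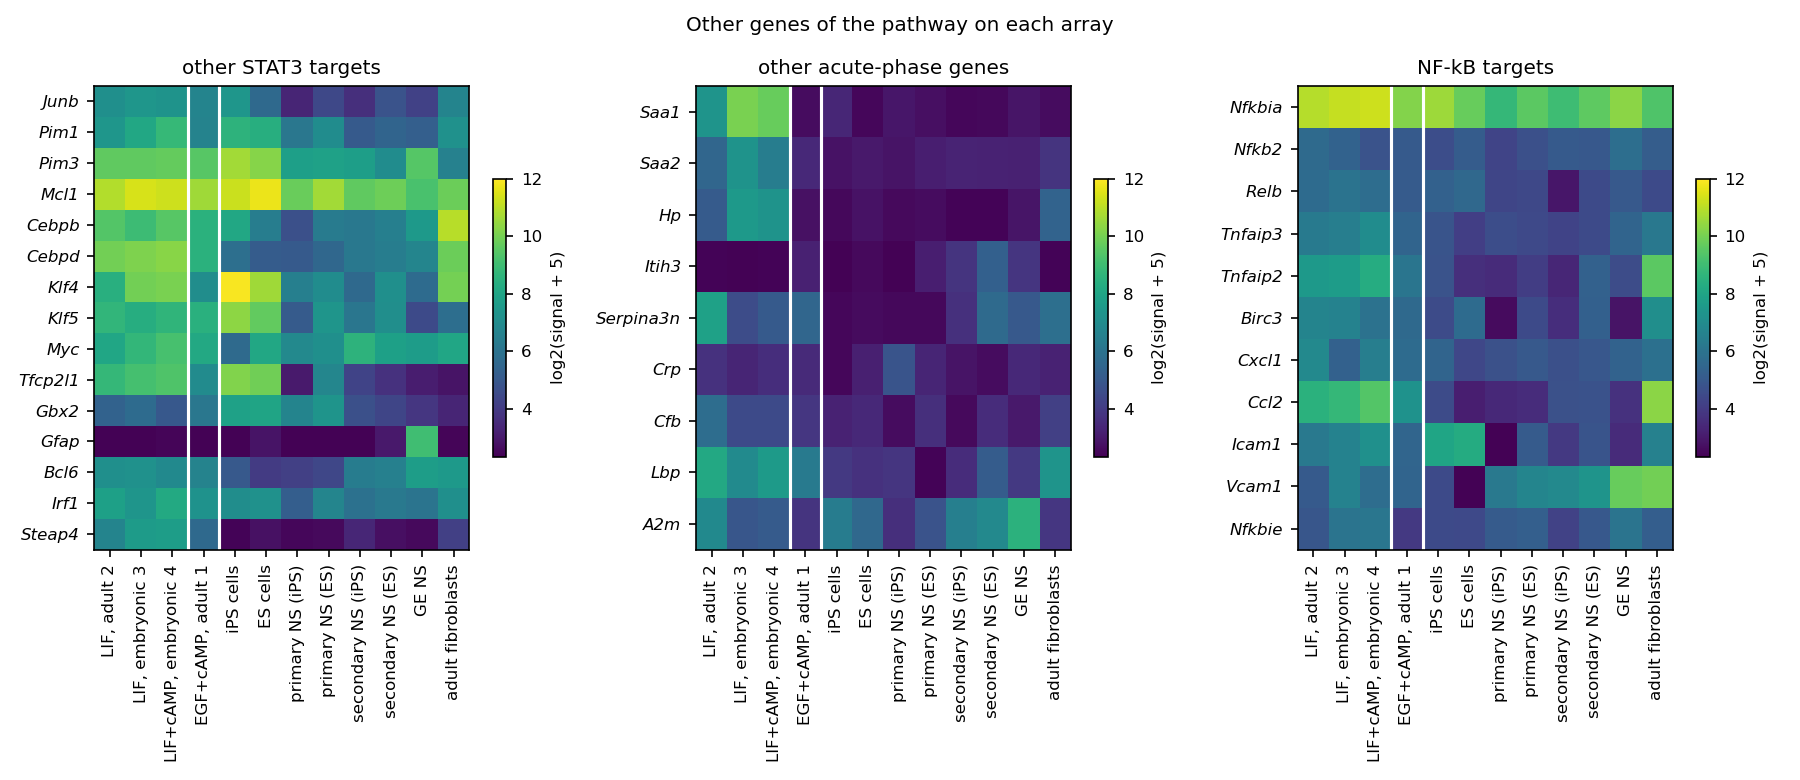
Log2(signal + 5) of the tested genes of 3 lists on each array, with the 3 LIF-grown arrays left of the first white line and the EGF and cAMP array between the lines. Saa1 and Saa2 are brightest on the LIF-grown arrays, while Gfap is bright only on the GE array.

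Of 15 other STAT3 targets, 12 were higher and 1 lower than in primary neurospheres, 11 and 0 than in secondary ones, 10 and 1 than in GE neurospheres, 6 and 0 than in fibroblasts and 4 and 2 than in pluripotent cells, the last near the shares of all genes (18.4% and 8.57%). Cebpd, a transcription factor of the acute-phase response, was at 967.1, 1126.8 and 1242.6 with LIF and 356.9 with EGF and cAMP, beside 52.8 and 29.8 in iPS and ES cells (4.63 ± 0.28, adjusted p = 7.73e-05) and 912 in fibroblasts. Tfcp2l1, a self-renewal factor downstream of LIF in mouse ES cells, was at 433.6, 556 and 641.5 with LIF and 122.5 without, beside 1136.4 and 950.7 in the pluripotent cells. Klf4, a pluripotency factor, was at 339.7, 980.7 and 1050.8 with LIF and 130.6 without. It stood at 3823.7 and 1561.8 in iPS and ES cells and 998.9 in fibroblasts. Steap4, a metalloreductase, was at 98.7, 196.1 and 203.8 with LIF and 44.6 without. Gfap, an astrocyte filament and STAT3 target, was at 0.5 or less on all 4 fibroblast-derived arrays and at 513.6 in GE neurospheres (-6.61 ± 0.45, adjusted p = 0.000131). Against the pluripotent cells the 2 lower were Pim3 and Gbx2. Gbx2 also lay below the EGF and cAMP array, at 36, 46.9 and 26.7 with LIF and 65.9 without. In the adult-derived pair 4 of the 15 were higher by 1 or more (8.01% of all genes), namely Cebpd, Klf4, Tfcp2l1 and Steap4, and none lower.

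Of the family's 5 tested ligands, Il6 was higher than in pluripotent cells (2.56 ± 0.80, adjusted p = 0.0444) and than in primary and secondary neurospheres, with signals of 39.9, 14.3 and 182.5 with LIF, 2.1 with EGF and cAMP and 245.7 in fibroblasts. Lif itself was at 17.4, 28.2 and 79.5 with LIF and 24.7 without, and was called higher than in secondary neurospheres. No ligand passed against GE neurospheres or fibroblasts, where limma counted 1 and 0 of 5 at an unadjusted p under 0.05. Il6ra, the interleukin 6 receptor, was at 82.6, 131.9 and 106.1 with LIF, 37.2 without and 0.3 to 10.8 in the pluripotent cells and the other neurospheres, and was higher than in all of these (2.87 to 3.93). Cntfr, the receptor for ciliary neurotrophic factor, was lower than in primary, secondary and GE neurospheres (-2.02 to -1.59).

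Of 9 kinases and other STATs, 4 were higher than in pluripotent cells and 4 than in primary neurospheres, 3 higher and 1 lower than in secondary neurospheres, 2 higher than in GE neurospheres and 1 lower, Jak1, than in fibroblasts. The counts against GE neurospheres and fibroblasts lay near the shares of all genes (14.8% higher and 7.26% lower). Stat5a, at 49.1, 72.1 and 80.5 with LIF and 33.8 without, was higher than in every group of pluripotent cells or other neurospheres (1.78 to 3.11). Of 12 inhibitors and phosphatases, 5 were higher than in pluripotent cells, 3 than in primary neurospheres, 3 (and 1 lower) than in secondary ones, 1 (and 1 lower) than in GE neurospheres and 3 (and 1 lower) than in fibroblasts. The counts against GE neurospheres lay near or under the shares of all genes (14.8% and 12%). Socs2, an inhibitor of growth hormone signalling, was at 613.4, 533.2 and 639 with LIF and 568.2 without, beside 82.4 and 97.9 in secondary neurospheres (2.66 ± 0.28, adjusted p = 0.00041).

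Because Saa3, Lcn2 and Bcl3 are also linked to NF-kB, 11 NF-kB targets were read. Of these 7 were higher than in primary neurospheres, 6 than in secondary ones, 4 (and 1 lower) than in GE neurospheres, 4 than in pluripotent cells and 1 (and 1 lower) than in fibroblasts, beside 14.9%, 15.1%, 14.8% (12% lower), 18.4% and 12.9% (7.26% lower) of all genes. The chemokine gene Ccl2 was at 360.5, 433.7 and 669.6 with LIF and 149.7 without, beside 18.1 and 3.7 in iPS and ES cells and 1256.1 in fibroblasts. Nfkbia, the inhibitor induced by NF-kB, was at 1925.9, 2252.7 and 2464.9 with LIF and 1172.6 without. Against the EGF and cAMP array no gene of these 7 lists passed, and at an unadjusted p under 0.05 there were 4 each among the other acute-phase genes, the other STAT3 targets and the NF-kB targets, 1 among the ligands and none in the other 3 lists, beside 1192 of all 13650 genes.

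Markers of other cells were read on the same arrays. The fibroblast markers summed to 5956, 2840 and 4028 on the LIF-grown arrays, 1365 on the EGF and cAMP array, 92 to 10556 in pluripotent cells and other neurospheres and 44110 in adult fibroblasts, with 10 of 10 at 20 or more on each LIF-grown array and 6 on the EGF and cAMP array. Col1a2, a collagen chain, was at 1448.9, 1236.2 and 1195.4 with LIF and 39.5 with EGF and cAMP, and Postn, a matrix protein, at 640.6, 97 and 68.9 with LIF and 8.2 without. Fbln2, of the same fibroblast list, went the other way, at 438.7, 145.7 and 175.3 with LIF and 698.4 without. The part of such cells in the high Saa3, Lcn2 and Cp was not tested. Fibroblasts themselves had Saa3 at 213.6, the highest outside the LIF-grown arrays, Lcn2 at 4 and Cp at 38.2, each below every LIF-grown array. The ES-derived secondary neurospheres, with a fibroblast marker sum of 10556, had Saa3 at 25.6 and Lcn2 at 3.5 but Cp at 159.4. In these bulk samples fewer cells of a type and less RNA per cell cannot be told apart.

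The pluripotency markers summed to 7738, 12057 and 12551 on the LIF-grown arrays and 2794 on the EGF and cAMP array, and their part was not tested either. Pluripotent cells, with sums of 20762 and 22046, had Saa3, Lcn2 and Cp at 27.4 or less. The macrophage markers summed to 304, 2294 and 562 on the LIF-grown arrays and 351 on the EGF and cAMP array. On embryonic replicate 3, 9 of 11 reached 20, with Lyz2 at 1433.5, and Itgam and Aif1 did not. That array had the lowest Saa3, Lcn2 and Cp of the LIF-grown arrays. Without it, the log2 differences from the EGF and cAMP array were 5.42 for Saa3, 5.27 for Lcn2 and 2.73 for Cp, with adjusted p of 0.124, 0.124 and 0.526. The part of macrophages in these signals was not tested. The 4 trophoblast markers summed to 48.1, 1368 and 730 on the LIF-grown arrays and 16.2 on the EGF and cAMP array. Tpbpa made up most of the sum on embryonic replicates 3 and 4, at 1324.5 and 687.2, and was at 0.4 on adult replicate 2. Elf5, a transcription factor, was at 24, 17.8 and 21.5 with LIF and 6.1 without, and was higher than in all groups but the EGF and cAMP array (1.60 to 2.31, adjusted p = 0.00168 to 0.0178). Elf5 reached 20 only on LIF-grown arrays, barely, and passed the filter through them, so its calls are a description. The 8 hepatocyte and visceral endoderm markers summed to 191.1, 94.4 and 78.3 on the LIF-grown arrays, of which 3, 1 and 1 reached 20, and to 42.5 on the EGF and cAMP array, where none did. Apoa2, an apolipoprotein, was at 57.7, 66.5 and 43.1 with LIF and 17.4 without, and was higher than in pluripotent cells and primary, secondary and GE neurospheres (1.84 to 3.10). Apoa2 also passed the filter only through the LIF-grown arrays, so these calls are a description. Sox17, an endoderm factor, was at 83.7, 5.6 and 12.4 with LIF and 3.2 without and passed in no comparison, while Alb and Afp were under 10 on all 4 of these arrays. Foxa2, of the same list, was at 28.7, 7.3 and 5.5 with LIF. It stood at 290 and 266.4 in primary and 534 and 655.8 in secondary neurospheres, and was called lower than in both. Ttr was also called lower than in primary neurospheres. The list summed to 425.4 and 577.5 in primary and 559.5 and 677.2 in secondary neurospheres, above the LIF-grown arrays. The part of trophoblast, hepatocyte or endoderm cells was not tested.

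**Figure D5:**
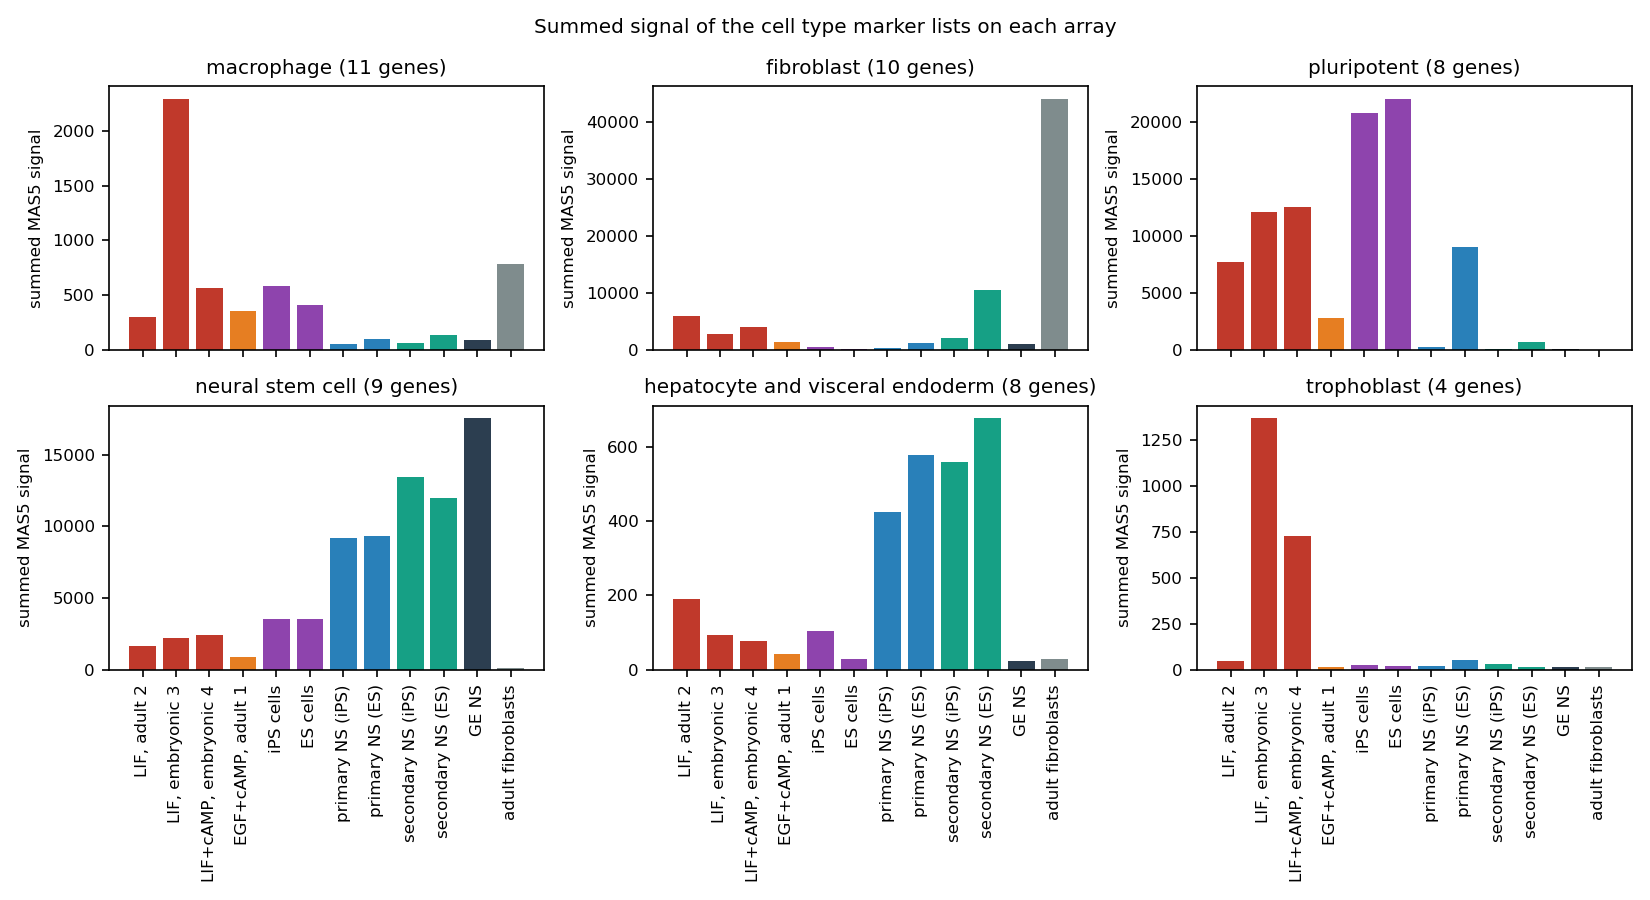
Summed MAS5 signal of the marker genes of 6 cell types on each array (bars start at 0). The macrophage sum is highest on embryonic replicate 3 (2294), the fibroblast sum in adult fibroblasts (44110), and the LIF-grown arrays exceed the EGF and cAMP array in the fibroblast and pluripotency sums.

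The genes closest in pattern to a member, by Pearson r of log2(signal + 5) over the 12 arrays among 9999 genes that reached 100, are named as a description. For Lcn2 they were 2610528A11Rik (0.988), Arg1 (0.976) and Defb1 (0.974). Arg1, an arginase, stood at 162.8, 131.6 and 284.6 with LIF and 6 with EGF and cAMP, and Defb1, an epithelial antimicrobial peptide, at 146.1, 392.6 and 588.9 with LIF and 9.5 without. For Saa3 they were Mmp3 (0.965), Ifi27l2a (0.950) and C1qtnf1 (0.939), and Mmp3, a matrix metalloproteinase, stood at 1436.3, 492.1 and 1225 with LIF and 31.4 without. For Socs3 they were Tfe3 (0.971), Junb (0.955) and Smarcd2 (0.954), for Osmr S100a4 (0.977), Adam15 (0.976) and Sting1 (0.973), and for Timp1 2210016F16Rik (0.988), Ripk3 (0.981) and Niban2 (0.976). Among the members themselves Saa3 and Lcn2 had an r of 0.921, Osmr and Timp1 0.853, and Socs3 and Cp 0.146. The arrays fall into groups that share cells and media, so these values carry no test.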

How the data were processed

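Total RNA of 12 mouse samples was hybridised to 12 Affymetrix arrays in 7 groups. The deposited values are signal intensity on a linear scale, and the submitters' processing notes name MAS5 and Affymetrix Expression Console 1.1 for them. Each array's 2%-trimmed mean was 100, so a change in total RNA is hidden, and dim MAS5 signals are noisy. Of 45101 probe sets, 64 were controls, and 34945 named 1 gene, 932 several and 9160 none in the platform's annotation held by GEO (symbols matched to GRCm38.p6, 0 changed).

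A pseudocount of 5 was added to the deposited signal before log2. A probe set entered if it reached 20 on at least 1 array, and a gene was its brightest passing probe set (13650 genes). Groups were compared in 1 fit of all 12 arrays with limma 3.58.1 in R 4.3.3 (lmFit, eBayes with an intensity trend, 5 residual and 3.56 prior degrees of freedom), 2-sided, with Benjamini-Hochberg adjustment over all genes and calls under 0.05. Groups of 1 array were assumed to vary like the others. The code was tested on simulated data. No culture or animal is named as the replicate.

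The members and lists were chosen with earlier results of these data known. Named genes were all members, up to 4 called genes of each list and comparison, list members at 100 or more on an array, and the 3 genes of most similar pattern. Lists covered ligands, receptors, kinases and STATs, inhibitors, STAT3 targets, acute-phase genes, NF-kB targets and markers of 6 cell types, and not all their genes had a probe set of their own. Arrays of iPS and ES origin are paired by cell line. Their iPS minus ES differences correlated across genes at 0.252 (pluripotent and primary), 0.0578 (pluripotent and secondary) and 0.425 (primary and secondary). Alternatives were a common median, quantile normalization, a pseudocount of 1 or 20, no filter, a filter at 100, the mean of probe sets, no trend, the line as a block, only the groups compared, each array of the groups with more than 1 array left out, and the adult LIF array alone. Promoter windows were read from RefSeq for 10 of 10 members.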

Additional observations from a re-analysis of the deposited data

How the results depend on the processing

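Over the 20 alternatives, 1118 of the members' log2 differences kept their direction and their side of the threshold, 38 lost a call, 22 gained one and 22 changed sign, and the cause was not tested. The sign changes concerned uncalled differences. With 1 array left out, the differences that changed sign ran from -0.083 to 0.62 (Lifr) and from -0.0055 to 0.12 (Stat3) against the EGF and cAMP array, where the lowest came without replicate 2. Bcl3 against fibroblasts ran from -0.14 to 0.20, and was -0.20 with quantile normalization and -0.45 with a common median. Against pluripotent cells Il6st ran from -0.15 to 0.20 (quantile normalization -0.10, common median -0.38, adult LIF array alone -0.17), Socs3 from -0.085 to 0.72 (common median -0.093) and Lifr from -0.63 to 0.067 (adult LIF array alone 0.28). Against secondary neurospheres Lifr ran from -0.45 to 0.25 (common median 0.00068, mean of probe sets 0.19, adult LIF array alone 0.46) and Il6st from -0.49 to 0.88, and Lifr against GE neurospheres was 0.046 with the adult LIF array alone.

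Against the EGF and cAMP array, the 6 genes called became 15 with a pseudocount of 20, 2 with the mean of probe sets, 3 with the replicate block and 1 with the adult LIF array alone, and 0 to 49 with 1 array left out: 0 without replicate 3 or 4 (741 and 747 at an unadjusted p under 0.05 in limma) and 49 without replicate 2. The 1 member called, Saa3, became 0 (3 at an unadjusted p under 0.05) with a pseudocount of 1, the mean of probe sets, the replicate block, only the groups compared and the adult LIF array alone, and 0 to 1 with 1 array left out. With the adult LIF array alone, the calls were 519 against fibroblasts (2758), 591 against pluripotent cells (3685), 895 against primary (3854), 1052 against secondary (4135) and 1210 against GE neurospheres (3658), with 2 members instead of 5 against fibroblasts (Il6st, Saa3 and Cp lost, adjusted p = 0.0999, 0.0692 and 0.182), 4 instead of 6 against pluripotent cells, 7 instead of 8 against primary and 6 instead of 7 against GE neurospheres (Cp lost in both, adjusted p = 0.0561 and 0.0601). With 1 array left out, the ranges were 1476 to 3183 genes and 3 to 6 members against fibroblasts, 1741 to 3914 and 5 to 6 against pluripotent cells, 1682 to 4285 and 8 to 9 against primary, 2182 to 4561 and 6 against secondary, and 2457 to 4106 and 7 against GE neurospheres. The lowest came without replicate 3 (1476 and 3, and 2457), the ES array (1741), the iPS-derived primary array (1682) and the iPS-derived secondary array (2182). With the replicate block, 7 members were called against fibroblasts, 6 against pluripotent cells, 9 against primary, 6 against secondary and 7 against GE neurospheres. A common median moved the median of all genes from 0.21 to -0.21 against fibroblasts, from 0.16 to -0.19 against pluripotent cells, from 0.03 to -0.15 against primary and from 0.05 to 0.19 against secondary neurospheres, where 60.1% of the calls were then higher beside 50.0%. Signals under 20, as of Lcn2 outside the LIF-grown arrays, limit the precision of the largest differences.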
